A study of Mus musculus with 10 samples.

Results

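The genes described are 35 that mark B lymphocytes and the plasma cells they turn into, followed in whole lungs of 10 mice. They were taken by symbol from the array's annotation, with the probe set of the highest mean over the 10 arrays standing for each gene. Of the 35, 34 had a probe set naming 1 gene, out of 18194 such genes in the series; Cd38 was not matched. The filter on dim signals (a log2 value above 4.20, the midpoint of all deposited values, on 5 or more arrays) was passed by 27 of the 34, among 11333 genes tested in all. Each of these 27 lay above that level on all 10 arrays, so none passed through 1 group alone.

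The mice were adult female C57BL/6, an inbred laboratory strain, with no genetic modification named in the labels. The exposed group, 5 mice, drank water with arsenic at 50 ppm for 12 weeks from 8 weeks of age, and the control group, 5 mice, drank distilled deionized water for the same time. The series names the compound as arsenate and the sample protocols name arsenite, so the group is called arsenic here. All arsenic titles carry one leading number and all control titles another, of unstated meaning, which cannot be told apart from the exposure. Each animal gave 1 Affymetrix array, and values are log2 signals, 1 unit being a doubling. The comparison asks whether transcripts of B-lineage cells in the lung differed after subchronic arsenic exposure. The 10 arrays had medians between 4.11 and 4.26 and correlated at 0.990 to 0.997 over probe sets, and their number limits the precision of every value.

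B cells read antigen through a surface immunoglobulin coupled to the signalling chains Cd79a and Cd79b, and coreceptors raise or damp that signal. After activation some become plasma cells, which swap the surface receptor for secreted antibody under the factors Prdm1 and Irf4. In the lung, B cells circulate in blood, settle in lymphoid clusters along the bronchi, and give rise to plasma cells under the airway lining whose IgA, polymerised by the joining chain, is carried into the airway by Pigr. In bulk tissue, fewer cells of a type and less RNA per cell cannot be told apart.

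No gene of the list changed between the groups by the test used, limma with Benjamini-Hochberg adjustment over all 11333 genes. An adjusted p under 0.05 was reached by 0 of the 27 genes, against 0.476% of all genes (54 genes, of which 0.379% of all were higher and 0.0971% lower with arsenic), and the smallest adjusted p among them was 0.274. An unadjusted p under 0.05 was reached by 2 of 27, Ebf1 and Igha, both lower with arsenic, where 5.13% of all genes were lower and 15.7% passed in either direction. The groups overlapped for all 27 genes, while 3.63% of all genes had groups that did not overlap, 0.803% being lower with arsenic. The difference of arsenic minus control was negative for 19 of 27 genes (70.4%), against 36.8% of all genes. The median of the 27 differences was -0.12 beside 0.057 over all genes, but it moved with the setting. It was 0.060 with the level of kidney transcripts as a covariate (0.098 over all genes). Without control 1 it was 0.035 (0.051 over all genes) and without control 2 it was 0.0017 (0.069). Array weights gave -0.22 (0.052 over all genes), as did leaving out control 3 (0.043). With each array centred on its median, 14 of 27 differences were negative, against 26.1% of all genes.

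The genes varied widely between animals of 1 group. The median SD of the 27 genes was 0.50 among controls and 0.36 among arsenic animals, against 0.18 and 0.18 over all genes tested. The SD was larger among controls for 17 of the 27 genes, beside 49.5% of all genes. Controls 1 and 2 stood high in most B-lymphocyte genes, being among the 4 highest of the 10 animals in 17 and 18 of the 20 tested, as arsenic 4 was in 16. Control 1 was the highest in 10 of 20, and both controls together held the highest 2 places in 9. In the 7 plasma-cell and immunoglobulin genes they never held those places together, and arsenic 2 was the lowest animal in 5 of 7.

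**Figure D1:**
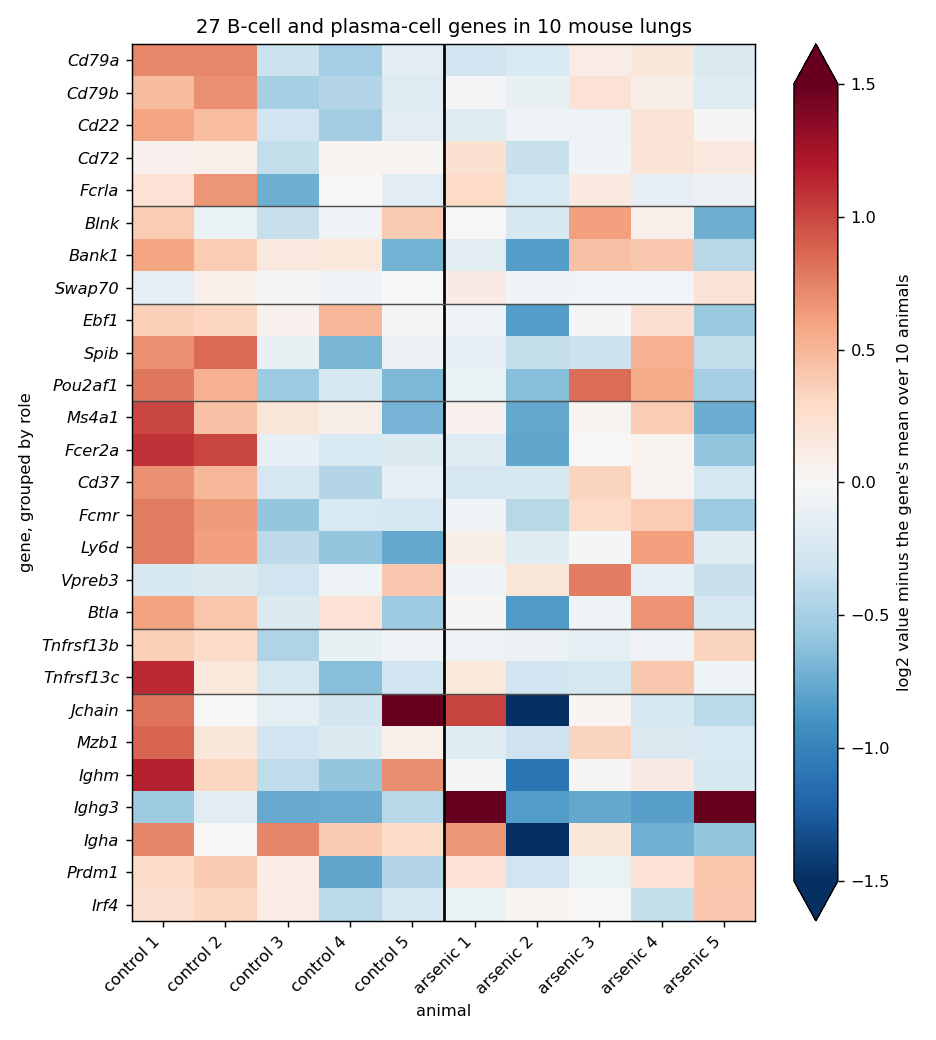
Each row is 1 of the 27 genes and each column 1 animal, with colour giving the log2 value minus that gene's mean over the 10 animals; lines part the roles, and the heavy line parts the 5 controls from the 5 arsenic animals. Controls 1 and 2 are high in most rows of the B-lymphocyte genes, arsenic 2 is lowest in 5 of the 7 plasma-cell rows, and Ighg3 is high in arsenic 1 and arsenic 5.

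Promoter sequences from RefSeq were matched by symbol for 27 of the 35 genes, in 31 windows that run from 250 bases before to 50 after a gene's start on GRCm38.p6. Of these, 5 are shown as examples, and other genes with the same patterns between animals are not shown. Cd79a, Cd22 and Spib were among the 9 B-lymphocyte genes highest in controls 1 and 2. Blnk and Vpreb3 were both highest in arsenic 3, as was Pou2af1. A link between the matches and these patterns was not tested. Capitals mark matches, on either strand, to sites named after factors that B cells use, namely ATGCAAAT (the octamer, bound by Pou2f2 with Pou2af1), CCCNNGGG (for Ebf1), AGGAAGT (for ETS factors such as Spib) and CAGGTG (an E-box, for E proteins).
Cd79a, chr7:24897247-24897546, plus strand: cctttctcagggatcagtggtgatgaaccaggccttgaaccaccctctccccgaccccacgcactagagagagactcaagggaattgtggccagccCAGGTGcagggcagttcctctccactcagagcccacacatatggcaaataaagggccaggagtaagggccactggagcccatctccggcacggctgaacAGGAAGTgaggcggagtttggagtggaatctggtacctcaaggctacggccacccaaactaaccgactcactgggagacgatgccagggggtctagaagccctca
Cd22, chr7:30878979-30879278, minus strand: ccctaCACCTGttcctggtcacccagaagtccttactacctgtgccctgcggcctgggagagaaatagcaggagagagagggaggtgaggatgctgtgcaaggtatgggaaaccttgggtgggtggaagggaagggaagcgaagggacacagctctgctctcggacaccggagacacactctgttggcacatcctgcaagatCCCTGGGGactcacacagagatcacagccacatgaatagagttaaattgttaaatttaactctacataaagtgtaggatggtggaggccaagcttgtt
Spib, chr7:44532022-44532321, minus strand: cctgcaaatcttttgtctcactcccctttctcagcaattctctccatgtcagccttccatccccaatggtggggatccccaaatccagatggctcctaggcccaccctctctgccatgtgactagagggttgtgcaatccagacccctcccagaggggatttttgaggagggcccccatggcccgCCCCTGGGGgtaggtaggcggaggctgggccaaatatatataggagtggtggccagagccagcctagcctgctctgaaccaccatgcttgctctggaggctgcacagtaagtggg
Blnk, chr19:40994172-40994471, minus strand: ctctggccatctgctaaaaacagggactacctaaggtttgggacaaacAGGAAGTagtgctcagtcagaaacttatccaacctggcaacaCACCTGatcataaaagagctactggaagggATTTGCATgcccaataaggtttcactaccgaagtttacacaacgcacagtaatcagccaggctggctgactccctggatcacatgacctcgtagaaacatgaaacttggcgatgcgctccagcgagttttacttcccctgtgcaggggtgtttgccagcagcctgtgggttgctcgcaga
Vpreb3, chr10:75948050-75948349, plus strand: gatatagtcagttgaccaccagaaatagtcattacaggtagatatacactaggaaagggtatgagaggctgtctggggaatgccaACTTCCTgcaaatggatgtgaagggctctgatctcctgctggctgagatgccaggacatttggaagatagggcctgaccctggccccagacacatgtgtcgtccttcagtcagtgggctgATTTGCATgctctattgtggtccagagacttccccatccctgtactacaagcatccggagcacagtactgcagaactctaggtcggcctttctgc
The octamer stood in the windows of 2 genes of the list, Blnk (from position -130 to the start) and Vpreb3 (from -45), and in 1.74% of all 32851 windows of the same length. CCCNNGGG stood in those of Cd22 (from -48), Bank1 and Spib, where 2 overlapping matches begin at -65 and -64, and in 13.7% of all windows. AGGAAGT was found for 8 genes and in 9.35% of all windows, and CAGGTG for 13 genes and in 20.2%. Matches to different motifs did not overlap in the windows shown. They are matches of letters in a short window and say nothing of binding.

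The antigen receptor and its coreceptors, 8 genes of which 5 were tested, had differences between -0.18 and 0.069. Cd79a, a signalling chain of the receptor, read 8.57, 8.57, 7.53, 7.35 and 7.70 in controls 1 to 5 and 7.57, 7.63, 7.97, 8.02 and 7.63 in arsenic 1 to 5. Above every arsenic animal lay controls 1 and 2, and below every one lay controls 3 and 4, so the arsenic values fell inside the control range. The difference was -0.18 (SE 0.25, 95% confidence interval -0.72 to 0.36; limma, adjusted p = 0.727), from -0.33 without control 4 to -0.022 without control 1.

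Cd79b, its partner chain, read 9.64, 9.85, 8.66, 8.73 and 8.97 in controls and 9.13, 9.06, 9.38, 9.27 and 8.97 in arsenic animals. The same 2 controls were highest and controls 3 and 4 lowest, and the difference was -0.0093 (SE 0.22, interval -0.50 to 0.49). Cd22, a lectin that damps the receptor through phosphatases, read 9.05, 8.92, 8.16, 7.94 and 8.30 in controls and 8.28, 8.39, 8.38, 8.66 and 8.47 in arsenic animals. It repeated the order of controls 1 and 2 at the top and control 4 at the bottom, with a difference of -0.036 (SE 0.20). The SD of Cd22 was 0.49 among controls and 0.14 among arsenic animals, and those of Cd79b were 0.54 and 0.16.

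Cd72, an inhibitory coreceptor, ran from 5.70 to 6.13 in controls and from 5.73 to 6.29 in arsenic animals, a difference of 0.069. Fcrla, an intracellular relative of Fc receptors, ran from 4.94 (control 3) to 6.34 (control 2) among controls and from 5.44 to 5.97 with arsenic, a difference of 0.0017. Both left the groups overlapping. The complement receptor Cr2 (2.92 to 3.46 over the 10 animals), the inhibitory lectin Siglecg (3.56 to 3.81) and the receptor-like Fcrl1 (2.78 to 2.88) stayed below the filter on every array.

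**Figure D2:**
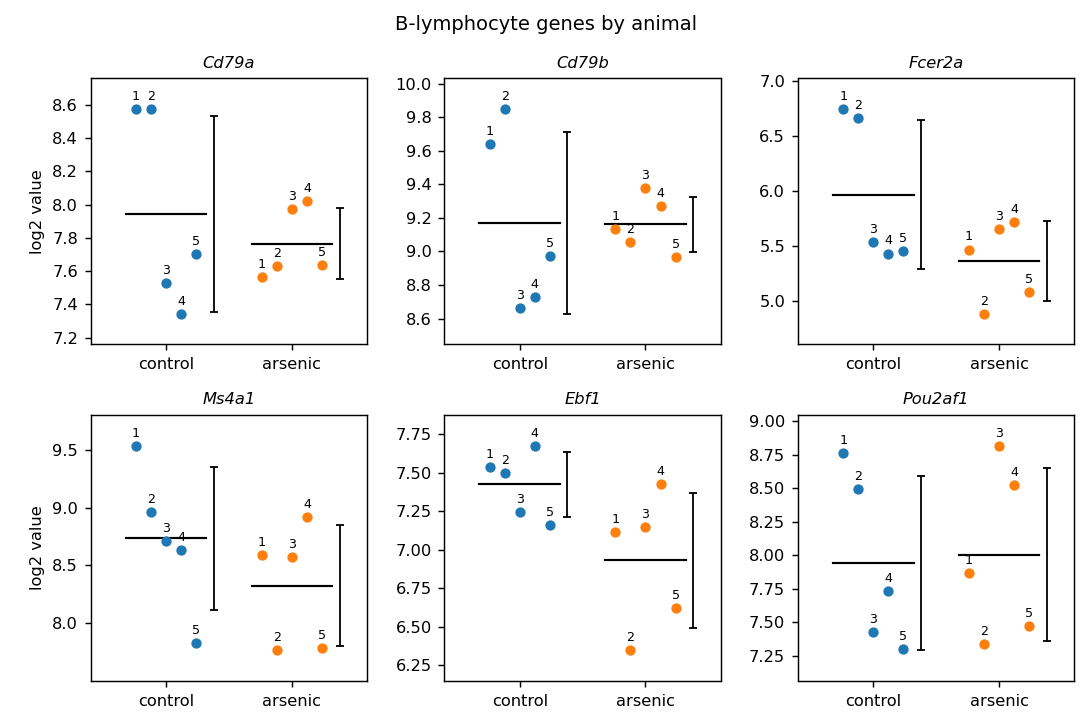
Points are the log2 values of 6 B-lymphocyte genes in each animal, numbered by replicate, with the group mean as a line and the SD of 5 animals as a bar beside it. Controls 1 and 2 stand apart from controls 3 to 5 in Cd79a, Cd79b and Fcer2a. In Ebf1 arsenic 1, 2, 3 and 5 lie below every control, with arsenic 2 and 5 lowest, at 6.35 and 6.62.

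Signalling proteins behind the receptor, 4 genes of which 3 were tested, had differences between -0.22 and 0.066. Blnk, the adaptor that joins the receptor's kinases to calcium signalling, read 7.78, 7.30, 7.06, 7.35 and 7.80 in controls and 7.39, 7.16, 8.01, 7.47 and 6.66 in arsenic animals. The highest and the lowest of its 10 values were both arsenic animals, 3 and 5, and the difference was -0.12 (SE 0.23, adjusted p = 0.819). Bank1, a scaffold for receptor-driven calcium release, ran from 5.59 to 6.89 in controls and from 5.48 to 6.74 with arsenic (difference -0.22, SE 0.29), from -0.43 without control 5 to -0.046 without arsenic 2. Swap70, which acts on actin and Rac in B cells and is made by other cells too, was the steadiest gene, between 10.08 and 10.43 over all animals, with a difference of 0.066 (SE 0.078). The kinase Blk lay between 3.78 and 4.54, above the filter level on 3 arrays.

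Among transcription factors, Ebf1 had the smallest p of the list. Ebf1, which with Pax5 sets B-cell identity and is also made by pericytes, fibroblasts and fat-cell precursors, read 7.54, 7.50, 7.25, 7.68 and 7.16 in controls and 7.11, 6.35, 7.15, 7.43 and 6.62 in arsenic animals. Of the arsenic animals 4 lay below the lowest control and arsenic 4 lay within the control range. The difference was -0.49 (SE 0.20, interval -0.92 to -0.062; limma, unadjusted p = 0.0286, adjusted p = 0.274), and a second probe set past the filter gave -0.36. Without arsenic 2 the difference was -0.35, and without arsenic 4 it was -0.62, with an adjusted p of 0.160. The order of the Ebf1 values was not that of the receptor genes: control 4, highest here, was lowest in Cd79a and Cd22.

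Because Ebf1 is not particular to B cells, 13 genes of pericytes and fibroblasts were read beside it. Their mean level was 8.88 to 9.07 in controls and 8.72 to 9.0 in arsenic animals, with 0 of 12 tested genes past the adjusted threshold. At an unadjusted p under 0.05, 2 of the 12 were lower, beside 5.13% of all genes. Col3a1, a fibrillar collagen, had the highest mean among the 13 and a difference of -0.39 (limma, adjusted p = 0.0841). Pdgfra and Pdgfrb, next by mean, had -0.028 and 0.044 (limma, adjusted p of 0.939 and 0.904). Over the 12 tested, 6 differences were negative and the median was -0.0067, beside 36.8% and 0.057 over all genes. The part of these cells in the Ebf1 values was not tested.

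Spib, an ETS factor of B cells and plasmacytoid dendritic cells, read 6.99, 7.16, 6.20, 5.62 and 6.22 in controls and 6.18, 5.95, 5.98, 6.83 and 5.95 in arsenic animals. The highest were again controls 1 and 2, arsenic 4 came next, and control 4 was lowest (difference -0.26, SE 0.29, adjusted p = 0.667). Leaving out 1 animal took it from -0.46 (without control 4) to -0.076 (without control 2). Pou2af1, the coactivator of octamer-binding factors in B cells, read 8.76, 8.49, 7.42, 7.73 and 7.30 in controls and 7.87, 7.34, 8.82, 8.53 and 7.47 in arsenic animals. In each group 2 animals stood high, controls 1 and 2 and arsenic 3 and 4, and the difference was 0.062 (SE 0.36, interval -0.73 to 0.85). Pax5 (2.13 to 2.25) and Pou2f2 (2.47 to 2.59) lay below the filter on every array.

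Other surface proteins gave 7 tested genes, with 5 negative differences and a median of -0.15. Ms4a1, the CD20 antigen, read 9.53, 8.96, 8.71, 8.63 and 7.83 in controls and 8.59, 7.77, 8.57, 8.92 and 7.79 in arsenic animals. Arsenic 2 and 5 were lowest, with control 5 just above them, and the difference was -0.41 (SE 0.32, adjusted p = 0.529), or -0.21 without control 1. A second probe set gave -0.34.

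Fcer2a, the low-affinity IgE receptor CD23 of follicular B cells, read 6.75, 6.67, 5.54, 5.43 and 5.46 in controls and 5.47, 4.89, 5.65, 5.72 and 5.08 in arsenic animals. Controls 1 and 2 stood clear above the other 8 animals, among whom the groups overlapped. The difference was -0.61 (SE 0.30, interval -1.27 to 0.055, adjusted p = 0.355), and -0.41 without control 1.

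Cd37, a tetraspanin of mature B cells, ran from 7.05 to 8.17 in controls and from 7.22 to 7.81 with arsenic (difference -0.15). Fcmr, the IgM receptor, ran from 7.69 to 9.05 and from 7.73 to 8.66 (difference -0.14), and Ly6d, a mark of commitment to the B lineage, from 7.35 to 8.90 and from 7.93 to 8.74 (difference 0.13). In all 3 the highest 2 animals were controls 1 and 2, with arsenic animals inside the control range.

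Btla, an inhibitory receptor that T cells also carry, ran from 6.50 to 7.65 in controls and from 6.20 to 7.72 with arsenic, highest in arsenic 4 and lowest in arsenic 2 (difference -0.19, SE 0.28). It was -0.38 without arsenic 4 and -0.0025 without arsenic 2. Vpreb3, which helps assemble the receptor inside the cell, did not follow the other genes. It was highest in arsenic 3, at 7.36, then in control 5, and lowest in arsenic 5, at 6.26, with controls 1 and 2 at 6.35 and 6.38, and its difference was 0.17 (SE 0.20, adjusted p = 0.684).

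Of the 3 receptors for the survival cytokines BAFF and APRIL, 2 were tested, with a median difference of -0.018. Tnfrsf13c, the BAFF receptor, read 6.68, 5.71, 5.30, 4.92 and 5.26 in controls and 5.72, 5.26, 5.29, 5.96 and 5.50 in arsenic animals. Control 1 was alone at the top, and the difference was -0.029 (SE 0.29, interval -0.67 to 0.61). Tnfrsf13b, called TACI, ran from 6.12 to 6.93 in controls and from 6.44 to 6.90 with arsenic, a difference of -0.0076 (SE 0.16, interval -0.35 to 0.33). Tnfrsf17, the BCMA receptor of plasma cells, lay at 2.08 to 2.15, below the filter on every array.

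**Figure D3:**
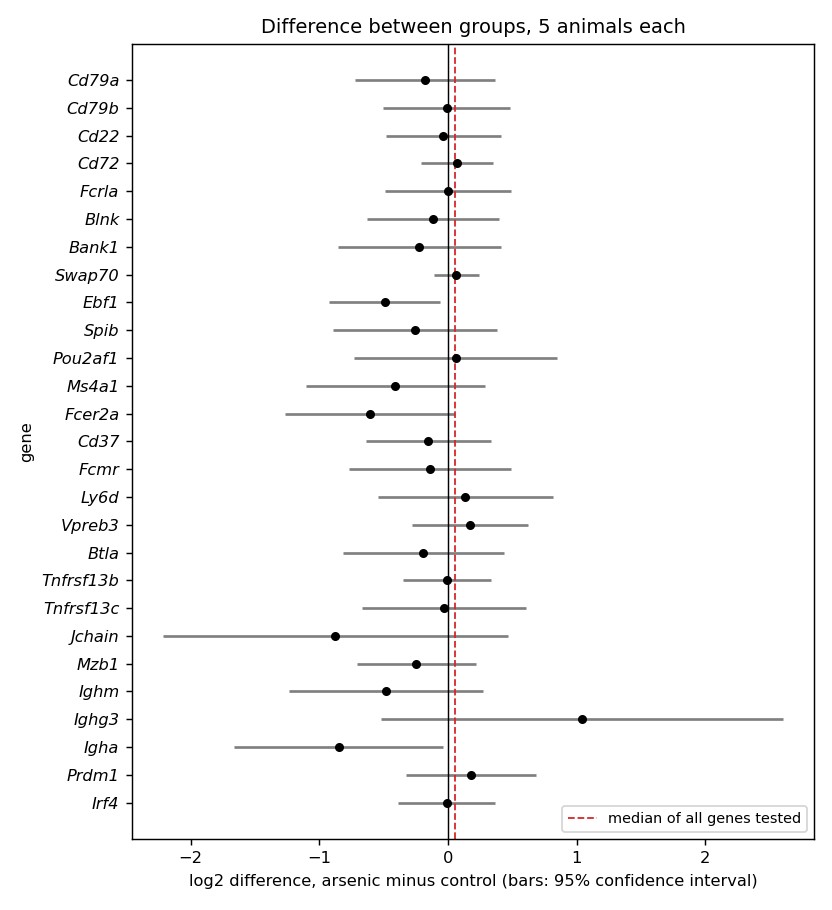
Points are log2 differences, arsenic minus control, of the 27 genes with 95% confidence intervals from limma (5 animals a group); the dashed line is the median of all genes tested, 0.057. Intervals of Ebf1 and Igha lie below 0 before adjustment, and those of Ighg3 and Jchain are the widest.

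The plasma-cell and immunoglobulin genes, all 7 tested, held both the largest negative and the largest positive difference of the list, and 5 of the 7 differences were negative (median -0.25). Igha, the heavy chain of IgA, read 11.05, 10.33, 11.05, 10.71 and 10.60 in controls and 10.99, 8.66, 10.50, 9.60 and 9.74 in arsenic animals. Arsenic 2, 4 and 5 lay below every control, arsenic 3 and arsenic 1 lay within the control range, and the arsenic SD was 0.89 against 0.31. The difference was -0.85 (SE 0.37, interval -1.66 to -0.038; limma, unadjusted p = 0.0417, adjusted p = 0.297). Without arsenic 2 it was -0.54 (adjusted p = 0.566) and without arsenic 1 it was -1.12 (adjusted p = 0.161). Its other 2 probe sets gave -0.73 and -0.64.

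Jchain, the joining chain of polymeric IgA and IgM, read 9.02, 8.21, 8.06, 7.93 and 9.99 in controls and 9.22, 5.63, 8.23, 7.96 and 7.80 in arsenic animals. Arsenic 2 lay far below the other 9 animals and control 5 was highest, a 20.5-fold span. The difference was -0.88 (SE 0.61, adjusted p = 0.482), and without arsenic 2 it was -0.34.

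Ighm, the heavy chain of IgM, read 11.66, 10.84, 10.12, 9.93 and 11.21 in controls and 10.49, 9.43, 10.52, 10.64 and 10.27 in arsenic animals. Controls 1 and 5 were highest and arsenic 2 lowest, with a difference of -0.48 (SE 0.34, adjusted p = 0.489). It was -0.26 without control 1 and -0.27 without arsenic 2, and the other 2 probe sets past the filter gave -0.94 and -0.059. The first of these had the same 2 controls at the top, at 12.17 and 12.29, and arsenic 2 at 6.88. Probe sets of immunoglobulin genes can bind transcripts of several related genes, so the gene behind each signal is uncertain.

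Ighg3, the heavy chain of IgG3, split the arsenic group. It read 5.20, 5.57, 4.98, 4.99 and 5.31 in controls and 8.18, 4.89, 4.97, 4.91 and 8.31 in arsenic animals. Arsenic 1 and 5 were far above all others, while arsenic 2, 3 and 4 lay just below the lowest control. The difference was 1.04 with an SE of 0.71, the widest of the list (adjusted p = 0.473), and it was 0.53 without arsenic 5 and 0.56 without arsenic 1. The other 3 probe sets named Ighg3 lay below the filter, between 2.53 and 2.87, in every animal, arsenic 1 and 5 included.

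**Figure D4:**
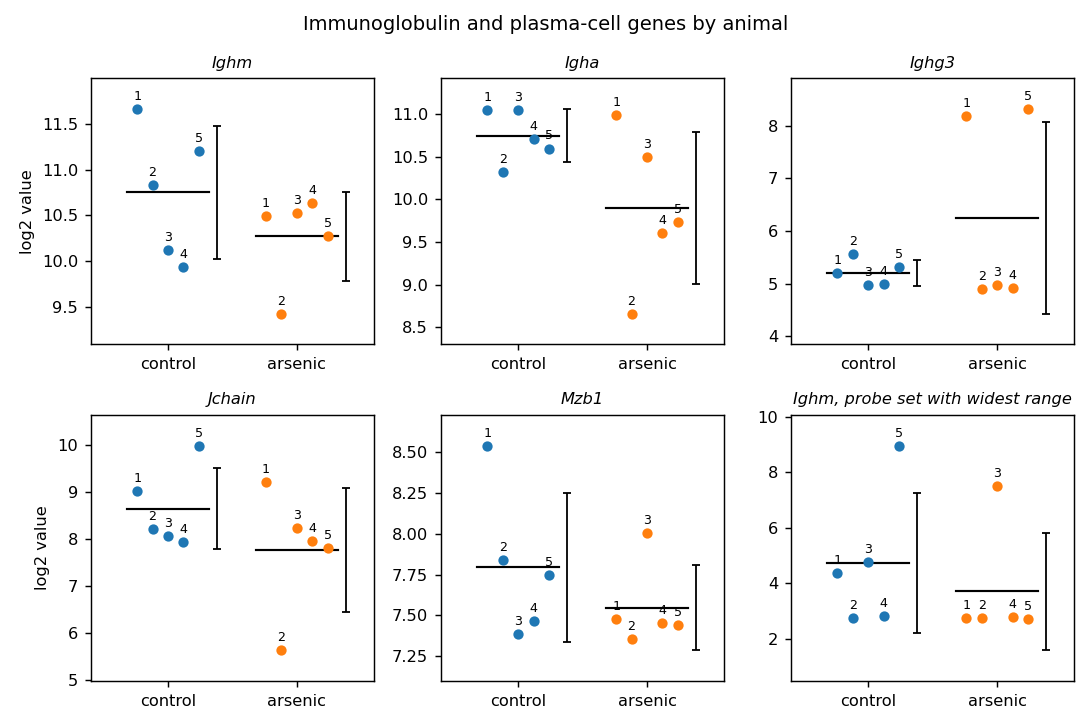
Points are the log2 values in each animal, numbered by replicate, for 5 immunoglobulin and plasma-cell genes and for the Ighm probe set of widest range, with the group mean as a line and the SD of 5 animals as a bar. Arsenic 2 is lowest in Ighm, Igha and Jchain, and Ighg3 is high in arsenic 1 and 5 alone.

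Mzb1, a chaperone of antibody assembly in the endoplasmic reticulum, read 8.54, 7.84, 7.39, 7.47 and 7.75 in controls and 7.48, 7.36, 8.01, 7.46 and 7.44 in arsenic animals. Control 1 and arsenic 3 were highest, and the difference was -0.25 (SE 0.21, adjusted p = 0.562), and -0.062 without control 1. The factors of plasma-cell fate are used by T cells and macrophages too. Prdm1 ran from 6.55 to 7.72 in controls and from 7.04 to 7.75 with arsenic (difference 0.18, SE 0.23). Irf4 ran from 4.72 to 5.44 and from 4.76 to 5.52 (difference -0.0099, SE 0.17). Both were highest in arsenic 5 and lowest in control 4.

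Of 113 genes tested in the wider pathway lists 1 rose (0.885%) and 0 fell, against 0.379% of all genes higher and 0.0971% lower. Of 12 tested genes for BAFF, APRIL and survival, Bcl2l1 rose. Bcl2l1, which encodes the survival protein Bcl-xL and is made by most cells, read 9.26, 9.66, 9.49, 9.36 and 9.58 in controls and 9.84, 10.18, 10.14, 10.33 and 10.27 in arsenic animals, with no overlap (3.63% of all genes had none). Its difference was 0.68 (SE 0.11, adjusted p = 0.0326), and of the 10 fits that each left out 1 animal the call held in 2, without control 2 and without arsenic 1, with adjusted p up to 0.10 in the others. It also ended without a filter (adjusted p = 0.0636), with kidney transcripts as a covariate (0.0788) and without arsenic 4 and control 2 (0.0883). Of 4 tested genes in a marker list for germinal centre B cells, 1 rose: Fas, a death receptor of many cell types, ran from 9.70 to 10.39 in controls and from 10.54 to 10.91 with arsenic. Its difference was 0.71 (SE 0.13, adjusted p = 0.0445), held in 1 of those 10 fits, without control 4, with adjusted p up to 0.131 in the others, and ended without a filter (0.0856), with the kidney level (0.0880) and without arsenic 4 and control 2 (0.136). Bcl6 and S1pr2, the next by mean in that marker list, had differences of 0.19 and 0.044 (limma, adjusted p of 0.319 and 0.895). The germinal centre markers Gcsam, Mybl1, Rgs13 and Mef2b lay below the filter.

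In the signalling pathway of the B-cell receptor, 0 of 26 tested genes passed the adjusted threshold, and the median difference was 0.070. At an unadjusted p under 0.05, 3 were higher and 3 lower, beside 10.6% and 5.13% of all genes. The inhibitory Fc receptor Fcgr2b, also on macrophages and endothelium, had 0.56 (adjusted p = 0.121), the phosphatase Inpp5d 0.48 (0.181), the exchange factor Rasgrp3 -0.57 (0.193) and Vav1 0.22 (0.292). Fcgr2b ran from 9.67 to 10.39 in controls and from 10.46 to 10.84 with arsenic, so its groups did not overlap. The same held for Rasgrp3 and Birc3, for Bcl2l1, Fas, Cd53, Xbp1, Manf and Col3a1 among genes named elsewhere, and for 3.63% of all genes. Genes of the pathway lists were named for their smallest p. Of the survival genes, Birc3 had 0.23 and Bcl2 -0.32, with adjusted p-values of 0.178 and 0.332.

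Of 11 tested homing genes 0 passed, with 1 higher and 2 lower before adjustment, beside 10.6% and 5.13% of all genes. Ccr7, which draws B and T cells and dendritic cells to lymphoid tissue, read 8.15, 8.30, 7.53, 7.14 and 7.30 in controls and 7.05, 6.63, 7.25, 7.36 and 6.49 in arsenic animals. Controls 1 and 2 were highest, as in the B-cell genes, and the difference was -0.73 (SE 0.25, adjusted p = 0.233). The exit receptor S1pr1, abundant in endothelium, had 0.42 and the integrin chain Itga4 -0.45.

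Of 37 further B-lymphocyte genes 0 passed, 22 had negative differences and the median was -0.084. Over all genes 36.8% of differences were negative and the median was 0.057. Tcf4, an E protein of many tissues, had -0.78 (adjusted p = 0.213), Mef2c -0.49 (0.180), Cd83 -0.33 (0.274) and Cd53 0.32 (0.170). Of 23 further plasma-cell genes, mostly of protein folding and secretion, 0 passed, with Xbp1, the factor that expands the secretory apparatus, at 0.25 (adjusted p = 0.179), Manf at 0.34, Hsp90b1 at -0.50 and Ell2 at -0.30. The median of the 23 was 0.045, with 10 negative.

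Of the further immunoglobulin genes listed, 3 were tested, Iglv1, Igk and Ighv14-2, with differences of -1.08, -0.40 and -0.15, none past the threshold (adjusted p from 0.404 to 0.829). Another 3 genes, kappa variable segments outside the lists found after the values were seen, also passed the filter, with differences of -0.59, -0.48 and -0.26 (adjusted p up to 0.678). Iglv1, a variable segment of the lambda light chain, was 10.43 in control 5 and 6.13 in arsenic 2, which were also the extremes of Jchain. A second Iglv1 probe set past the filter had another order. It was highest in control 2, at 7.23, and lowest in control 3, at 4.81, with control 5 at 5.55 and arsenic 2 at 5.04. The difference given for Iglv1 is that of the first probe set. Of 5 tested genes for the making and transport of IgA 0 passed; Pigr, which carries polymeric IgA across the airway lining, ran from 8.98 to 10.88 in controls and from 8.82 to 11.15 with arsenic (difference -0.35, SE 0.44). Aldh1a2, an enzyme of retinoic acid synthesis, had -0.69, and the switch cytokine Tgfb1 and its receptor Tgfbr2 had 0.11 and -0.058.

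Markers of other cells and tissues were read in the same arrays. The lung epithelial genes Sftpc and Scgb1a1 lay near the top of the scale, at 15.95 or more in every animal, as the tissue label says. Of 12 genes listed for B-cell precursors, 11 had a probe set naming 1 gene. Of these, 5 were below the filter, the recombination and surrogate light chain genes Rag1, Rag2, Dntt, Igll1 and Vpreb1. The other 6, which other lung cells can also make, were tested and 0 passed. They had 2 negative differences and a median of 0.088, beside 36.8% and 0.057 over all genes. Sox4, Erg and Bok, which had the highest means, had differences of -0.63, -0.37 and 0.097 (limma, adjusted p of 0.193, 0.235 and 0.828). The mean of 20 T-cell genes ran from 4.57 to 4.94 in controls and from 4.72 to 4.96 with arsenic. Of the 11 tested, 0 passed either threshold, where 15.7% of all genes passed the unadjusted one. Cd2, Thy1 and Cd3d had the highest means among the T-cell genes, at 9.01, 7.57 and 7.56 over all animals. Their differences were 0.0072, 0.073 and 0.14 (limma, adjusted p of 0.984, 0.879 and 0.675). The 9 T-cell genes below the filter included Cd8a, Cd4 and Cd5. Plasmacytoid dendritic cell genes had 0 of 5 past the adjusted threshold, and Siglech was below the filter. The lists for NK cells, dendritic cells, alveolar macrophages, neutrophils, lymph node stroma, thymus, erythroid cells and cardiac muscle also had 0 genes past it. The mean of lymph node stroma genes was highest in arsenic 3, at 5.77, and lay between 5.30 and 5.58 in the others, and that of neutrophil genes was highest in control 2, at 8.25, against 7.33 or less in the others.

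Transcripts known from kidney varied between animals. The mean of 25 such genes was 3.64, 4.41, 4.67, 5.16 and 4.34 in controls and 5.16, 4.90, 4.94, 5.99 and 4.68 in arsenic animals, lowest in control 1 and highest in arsenic 4, with the groups overlapping. Of 11 tested, 0 passed the adjusted threshold and 6 were higher at an unadjusted p under 0.05, where 10.6% of all genes were. Of the 11 differences 0 were negative, and their median was 1.08. Kap ran from 2.26 in control 1 to 13.40 in arsenic 4 (difference 2.78), and Slc27a2 from 3.90 to 10.56 in the same animals (1.82). Cdh16 had 0.59. The 14 genes below the filter included Aqp2, Slc12a3 and Kcnj1. With the mean of the 25 kidney genes as a covariate, 0 of the 27 B-cell and plasma-cell genes passed. The difference of Ebf1 was then -0.72 (adjusted p = 0.108), that of Igha -0.80 (0.302) and that of Cd79a 0.054 (0.920). Without arsenic 4 and control 2, 0 of 27 passed and the median difference was -0.087.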

How the data were processed

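Whole lungs of 10 mice gave total RNA by Trizol and a Qiagen clean-up, read on Mouse430_2 arrays, 1 per animal, per the labels' protocols. The authors deposited log2 values of 45101 probe sets, made with GCRMA per the submitters' processing notes; its version is not given in the sources used here. The log2 scale was inferred from the deposited range, 0.619 to 16.3. GCRMA draws dim probe sets towards a floor, which shrinks their differences.

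Groups and animal numbers came from the titles, and the labels give each animal its own number. In the platform annotation provided, 34958 probe sets named 1 gene, 932 several and 9211 none. Probe sets above 4.20 on at least 5 arrays were kept, and each gene was read from its kept probe set of highest mean. All 11333 genes entered 1 limma fit (version 3.58.1, lmFit then eBayes; R 4.3.3) with no covariate, and p-values were adjusted by Benjamini-Hochberg. The script was tested on simulated data. List means are over all named genes.

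The genes and lists were chosen with earlier results of these data known. All 35 genes are named whatever their values, with up to 4 genes of smallest p from each pathway list and up to 3 of highest mean from each marker list; markers reported as below the filter, immunoglobulin probe sets in the closing section, and motif matches were named after their values were seen. Alternatives were other filters, every probe set on its own, array weights, a replicate block, median centring, quantile normalization, eBayes with trend and robust settings, the kidney level as a covariate, and leaving out animals. Scanner files were not used here.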

Additional observations from a re-analysis of the deposited data

Results flagged for a closer look

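Of 68 groups of 5 animals checked, 6 held 1 animal far from the other 4 by Dixon's ratio, a rule that chance meets in about 1 group in 20. Among the genes tested, Cd72 was 5.70 in control 3, with the next control at 6.08. Spib was 6.83 in arsenic 4, with the next arsenic animal at 6.18. Tnfrsf13b was 6.90 in arsenic 5, with the next at 6.51, and Mzb1 was 8.01 in arsenic 3, with the next at 7.48. Among genes below the filter, Siglecg was 3.81 in control 1, with the next at 3.66, and Tnfrsf17 was 2.11 in control 2, with the next at 2.15. Both genes lay near the floor, and the ratio takes no account of how small a gap is, so these gaps cannot be read.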

How the results depend on the processing

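In every alternative run 0 of the 27 genes passed the adjusted threshold (0 of 521 differences), and their median difference lay between -0.22 and 0.035 when 1 animal was left out. Over all genes, 54 passed (43 higher, 11 lower), 19 without a filter, 11 without arsenic 4 and control 2, 0 with the kidney level as a covariate (limma; 2902 at an unadjusted p under 0.05), and 9 to 41 when 1 animal was left out. With a replicate block 5 passed; same-numbered animals share only a number (correlations of their deviations from the group means -0.33 to 0.25; 0 of 5 correlated best with their own), and the calls of Bcl2l1 and Fas ended (adjusted p of 0.0657 and 0.0706). Median centring gave 43 higher and 5 lower. Signs held in all alternatives for 13 of the 27 genes. With quantile normalization the sign turned for Tnfrsf13b (0.058), Tnfrsf13c (0.052) and Irf4 (0.070), and with median centring for these (0.056, 0.034 and 0.053), Cd79b (0.054), Cd22 (0.027) and Tgfbr2 (0.0049). Array weights turned Ly6d (-0.049) and Pou2af1 (-0.033). The kidney covariate turned Cd79a (0.054), Cd79b (0.19), Cd22 (0.19), Mzb1 (0.060), Cd37 (0.089), Tnfrsf13b (0.19), Tnfrsf13c (0.25), Irf4 (0.28) and Igk (0.13). Leaving out arsenic 4 and control 2 turned Cd79b (0.13), Cd22 (0.018), Tnfrsf13b (0.074) and Irf4 (0.16). Leaving out 1 animal took Cd79b from -0.14 to 0.16, Cd22 from -0.17 to 0.11, Fcmr from -0.30 to 0.035, Fcrla from -0.18 to 0.17, Blnk from -0.29 to 0.052, Ly6d from -0.041 to 0.35, Pou2af1 from -0.14 to 0.27, Cd72 from -0.013 to 0.16, Tnfrsf13b from -0.12 to 0.081, Tnfrsf13c from -0.19 to 0.25, Irf4 from -0.11 to 0.079, Ighv14-2 from -0.35 to 0.032 and Tgfb1 from -0.025 to 0.20. The causes were not tested. Signals near the floor limit Cr2, Siglecg, Fcrl1, Blk, Pax5, Pou2f2 and Tnfrsf17, whose differences cannot be read.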

Other observations

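Beyond the genes tested, some immunoglobulin probe sets were far higher in a few animals than in the rest. They are named here because of their values. An Ighm probe set below the filter was 8.95 in control 5, 7.50 in arsenic 3, 4.75 in control 3 and 4.36 in control 1, and between 2.71 and 2.81 in the other 6. A probe set of a kappa variable segment was 5.33, 4.85 and 5.21 in controls 1, 2 and 4 and between 2.57 and 3.33 in the other 7. That of another such segment was 6.05 in control 5 and at most 4.32 elsewhere. Of 18 immunoglobulin probe sets above the filter level on at least 1 array, 12 spanned over 2 log2 units between the lowest and the highest animal, beside 3.16% of the 19501 probe sets that passed the filter, a set chosen by a stricter rule.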
